A study of Mus musculus with 12 samples.

Results

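The genes described here encode the laminin chains, the nidogens, perlecan and the integrins, as measured in whole mouse ovaries. They are the 37 rows of the deposited expression table, of 24255, whose symbol is that of a laminin alpha, beta or gamma chain (Lama, Lamb and Lamc with a number), a nidogen, perlecan (Hspg2), or an integrin alpha or beta chain (Itga or Itgb with a number, and Itgae, Itgal and Itgav). Of these, 14 are basement membrane chains and 23 are integrins, and the 2 sets are described apart. The integrin alpha genes Itgam, Itgax and Itgad fall outside that rule and are given with the related genes at the end.

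Ovaries of wild-type C57BL/6 mice (WT, 7 libraries) were compared with ovaries of C57BL/6 mice carrying an oocyte-conditional knockout of Mtor made with Gdf9-Cre (CKO, 5 libraries). All mice were 6 months old, and each had received 5 IU of PMSG, a gonadotropin that drives follicle growth, 46 h before the ovaries were taken. Gdf9-Cre acts in oocytes, so the other ovarian cells keep Mtor by design, and nothing in the labels says how the wild-type mice relate to the knockout mice. The labels do not state that each library is a separate animal, so each p-value speaks only to the spread among libraries, which may be technical.

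Laminins are trimers of an alpha, a beta and a gamma chain that polymerise into the sheet of a basement membrane, and nidogens and the proteoglycan perlecan join that sheet to the collagen IV network. Integrins are alpha-beta pairs at the cell surface that bind laminin, collagen, fibronectin, vitronectin or proteins on other cells; a few pairs, those with the beta2 and beta7 chains, belong to leukocytes. In the ovary a basement membrane surrounds each follicle and separates the granulosa cells, which touch it, from the theca and its vessels, and endothelium and smooth muscle have membranes of their own.

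Values were FPKM (fragments scaled to transcript length and library size), so levels of different genes can be set side by side. Mtor itself was 3.84 to 5.55 FPKM in WT and 4.63 to 5.88 FPKM in CKO libraries, so in whole ovary it does not separate the groups. The relative depth of the libraries, read from the steps between low values, spanned a 2.18-fold range (1.097 ± 0.209 in WT and 1.138 ± 0.306 in CKO, SD, in relative units). Markers of granulosa cells were lower in CKO (6 of 6 genes, summed 3178 to 5788 FPKM in WT against 1269 to 2305), as were oocyte markers (4 of 4, 28.0 to 95.1 against 1.14 to 21.2). Macrophage markers (6 of 7 passed the test as higher; 270.4 to 725 against 951 to 3203), mast cell markers (5 of 5; 0.443 to 14.2 against 54.8 to 262) and stromal markers (3 of 5; 430.4 to 634 against 1299 to 1750) were higher. All mast cell markers except Tpsb2 reached 1 FPKM in fewer than 5 WT libraries, so they entered the test through the CKO libraries. CKO libraries 1 and 5 had the highest macrophage sums (2876 and 3203), CKO libraries 2 and 3 the highest oviduct marker Ovgp1 (252 and 81.9 FPKM, against 0 to 1.45 in WT), and 1 WT column whose name fits more than 1 sample is called the unnumbered WT library. In whole-ovary RNA, fewer cells of a type and less RNA per cell cannot be told apart.

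In CKO ovaries 2 gamma chains of laminin, Lamc1 and Lamc3, were lower, and no laminin alpha or beta chain, nidogen or perlecan passed the test in either direction. Among integrins Itgb2, Itgal, Itgb7 and Itga5 were higher, and Itgav and Itga9 were lower. Changes are log2 fold changes of FPKM + 1 from limma, CKO over WT, with Benjamini-Hochberg adjustment over the 13168 genes that reached 1 FPKM in at least 5 libraries; "passed" means an adjusted p under 0.05. A fold is the ratio of mean FPKM. The log2 change understates the change of genes near 1 FPKM.

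Of the 37 members, 27 were tested, 11 basement membrane chains and 16 integrins. Over all genes tested, 8.70% were called higher in CKO and 7.59% lower. Among basement membrane chains 0 of 11 were higher and 2 (18.2%) lower, with a median log2 change of -0.10 against -0.01 over all genes. By limma 1 chain was higher at an unadjusted p under 0.05, and an exact Wilcoxon test also called 0 higher. Among integrins 4 of 16 (25.0%) were higher and 2 (12.5%) lower, with a median of 0.09. Of the 4, Itgal and Itgb7 entered the test through the CKO libraries: they reached 1 FPKM in 5 of 5 CKO libraries but in 2 and 1 of 7 WT libraries. The CKO and WT values did not overlap for 1 integrin that was higher (Itgal) and 1 that was lower (Itgav); over all genes tested such non-overlap was seen in 4.09% (higher) and 3.65% (lower), and it was seen for 0 basement membrane chains. With sets of 11 and 16 genes, 1 member moves these shares by several percentage points.

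**Figure D1:**
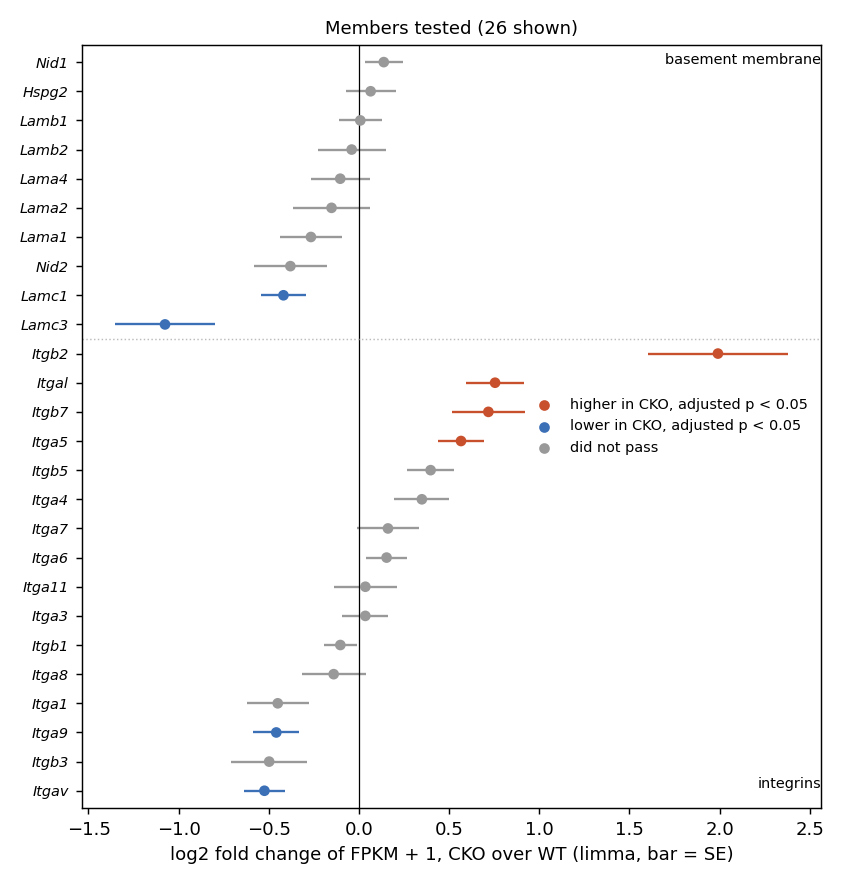
Log2 fold change of FPKM + 1, CKO over WT, for 26 of the members tested (points, limma estimates; bars, standard error), with basement membrane chains above the dotted line and integrins below. Red and blue mark the 8 members that passed the test as higher or lower; the extremes are Itgb2 at 1.99 and Lamc3 at -1.08.

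The gamma chain completes the laminin trimer and, in laminins with gamma1, carries the nidogen-binding site. Lamc1, the gamma chain shared by most laminins, lies at chr1:153218922-153332786 on the minus strand (mm10, GENCODE M21). It ran from 27.5 through a median of 32.5 to 42.5 FPKM in WT, and was 23.3, 22.6, 23.1, 33.7 and 21.1 FPKM in CKO libraries 1 to 5. CKO library 4 lay inside the WT range and the other 4 CKO libraries below all WT libraries. The mean fell from 33.2 ± 4.66 (SD, n = 7) to 24.8 ± 5.05 FPKM (SD, n = 5), a 0.745-fold level (log2 change -0.42, SE 0.13, limma adjusted p = 0.0359). The call is narrow: without any 1 of WT libraries 1, 4 and 6 or CKO libraries 1, 2, 3 and 5 the adjusted p rose above 0.05, to 0.0907 at most, while without CKO library 4 it was 0.00782 (log2 change -0.53). The exact Wilcoxon test gave an adjusted p of 0.171.

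Lamc3, at chr2:31887291-31946539 on the plus strand, encodes gamma3, a chain of few laminins, known from retina, brain surface and reproductive tissue. It was 2.76, 4.63 and 8.58 FPKM at the lowest, median and highest WT library, and 1.65, 1.99, 0.433, 4.18 and 1.47 FPKM in CKO libraries 1 to 5. Again CKO library 4 alone reached the WT range. The mean was 4.91 ± 1.77 FPKM (SD, n = 7) in WT and 1.95 ± 1.38 FPKM (SD, n = 5) in CKO, 0.397-fold (log2 change -1.08, SE 0.28, limma adjusted p = 0.0164). This call held with any 1 library left out (-1.31 to -0.85) and was lost without CKO libraries 1 and 5 together (adjusted p = 0.0835) or 2 and 3 together (0.0797). The summed granulosa markers were lower in all CKO than in all WT libraries (of the 6 single genes, 4 separated the groups). Both gamma chains shared this group direction, but not the order of the summed markers within CKO. CKO library 4, the highest CKO library for both chains, had a granulosa sum of 1312 FPKM, against 2305 FPKM in CKO library 1. Most of that sum was Inha (985 and 1910 FPKM). Single markers differed in order. Foxl2 (213 FPKM) and Nr5a2 (58.9 FPKM) were highest of CKO in library 4. Inha, Inhbb, Amh and Fshr were highest of CKO in library 1. The part of granulosa cells in the result was not tested. Of the Lamc3 exon bases 6.27% overlap an antisense gene, and the sources used here do not say whether the counting used strand.

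**Figure D2:**
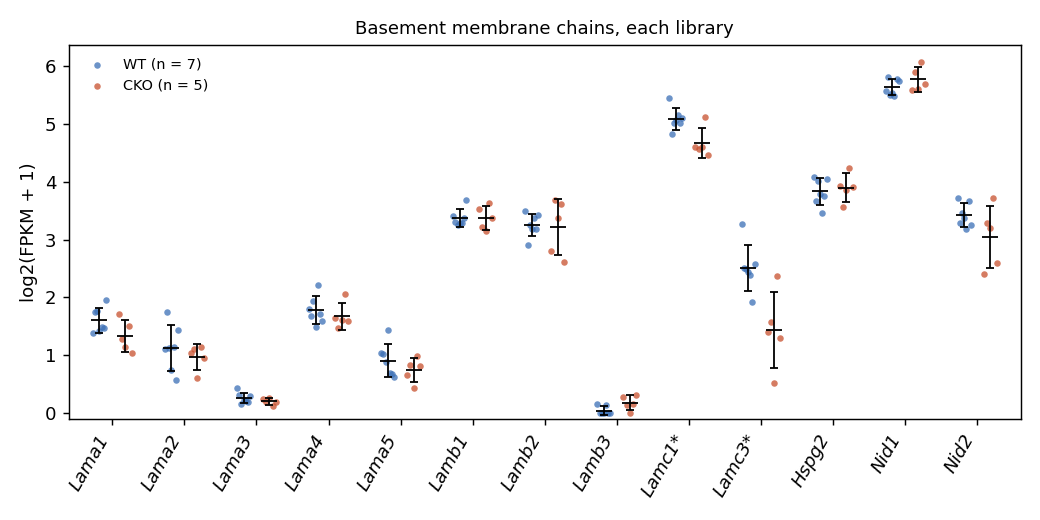
Log2(FPKM + 1) of 13 of the basement membrane chains in each library (blue, WT, n = 7; red, CKO, n = 5), with the mean and SD of each group. Asterisks mark Lamc1 and Lamc3, in which 4 of the 5 CKO points lie below all WT points.

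Laminin alpha chains carry the sites that integrins and dystroglycan bind, and their transcripts were scarce: the 5 alpha genes summed to 6.89 ± 0.985 FPKM in WT and 5.59 ± 1.18 FPKM in CKO, against the 33.2 ± 4.66 and 24.8 ± 5.05 FPKM of Lamc1 alone (mean ± SD, n = 7 and 5 throughout this section). Lama4, the alpha chain of vessel walls, had the highest mean. Lama4 was 1.81 to 3.64 FPKM in WT (median 2.28) and 2.13, 1.76, 2.03, 3.18 and 1.999 FPKM in CKO, so the CKO values lay inside or just below the WT range (log2 change -0.10, SE 0.16, limma adjusted p = 0.723). Lama1, an alpha chain of early follicle and embryonic membranes, was 1.61 to 2.88 FPKM in WT and 1.05 to 2.26 FPKM in CKO (log2 change -0.27, limma adjusted p = 0.319). Lama2, the muscle alpha chain, averaged 1.25 ± 0.629 and 0.973 ± 0.275 FPKM (adjusted p = 0.682). Lama5, 0.352 to 1.70 FPKM over the 12 libraries, and Lama3, 0.0871 to 0.348 FPKM, were under the filter and not tested.

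Of the beta chains, Lamb1 and Lamb2 had like levels. Lamb1, the widespread beta chain, was 8.56 to 11.9 FPKM in WT (median 8.84) and 10.6, 8.32, 7.82, 11.4 and 9.31 FPKM in CKO, overlapping the WT range (log2 change 0.01, SE 0.12, limma adjusted p = 0.975). Lamb2, the beta chain of vessels, muscle and kidney, averaged 8.63 ± 1.24 FPKM in WT and 8.71 ± 3.07 FPKM in CKO (log2 change -0.04, SE 0.19, adjusted p = 0.912). Its CKO values spread wider than the WT values, at 5.93, 11.8, 9.41, 11.3 and 5.09 FPKM, with the lowest 2 in CKO libraries 1 and 5. Lamb3, an epithelial beta chain, stayed at or under 0.246 FPKM in all libraries, while surface epithelium markers summed to 72.0 to 174 FPKM in WT and 86.9 to 447 FPKM in CKO. The 447 FPKM was CKO library 1, and the other CKO libraries, at most 150 FPKM, lay inside the WT range.

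Nidogen-1, the linker between laminin and collagen IV, had the highest level of the 14 basement membrane chains. Nid1 was 43.8 to 55.2 FPKM in WT (median 46.6) and 47.2, 58.9, 47.3, 65.9 and 50.4 FPKM in CKO, overlapping (log2 change 0.14, SE 0.11, limma adjusted p = 0.423). Nid2 averaged 9.80 ± 1.57 and 7.68 ± 3.15 FPKM (log2 change -0.38, SE 0.20, adjusted p = 0.224), with 4.27 and 5.05 FPKM in CKO libraries 1 and 5 and 8.23 to 12.1 FPKM in the other 3. Hspg2 was level, at 13.4 ± 2.21 and 14.1 ± 2.57 FPKM (log2 change 0.06, adjusted p = 0.801). The summed nidogen and perlecan transcripts were 71.9 FPKM in WT and 75.7 FPKM in CKO.

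As shares of each class's summed FPKM, with no test, the alpha chains were led by Lama4 (36.1 ± 8.46% in WT, 39.9 ± 5.89% in CKO) and Lama1 (30.0 ± 5.45% and 27.7 ± 5.48%). Of the beta chains Lamb1 took 52.1% in WT and 52.6% in CKO, and Lamb2 47.7% and 46.6%. A share can move because another member of the class moved.

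**Figure D3:**
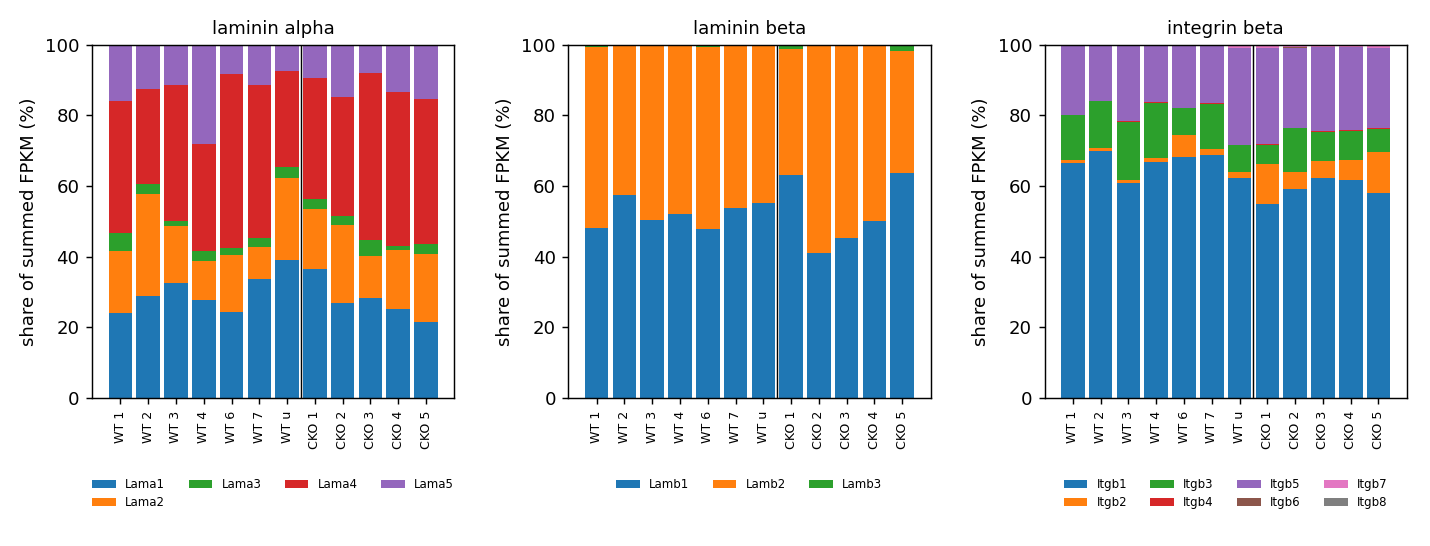
Share of the summed FPKM of each class (%) in every library, for laminin alpha, laminin beta and integrin beta chains, WT left and CKO right of the black line (WT u is the unnumbered WT library). Itgb1 holds the largest share of its class in every library, and the Itgb2 share is 1.85 ± 1.86% in WT and 7.50 ± 3.52% in CKO.

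The integrins that rose most were leukocyte chains. Itgb2 (chr10:77530252-77565708, plus strand) encodes beta2, the partner of the leukocyte alpha chains. It was 1.68, 2.53 and 12.4 FPKM at the lowest, median and highest WT library, and 27.5, 9.77, 9.40, 13.1 and 27.5 FPKM in CKO libraries 1 to 5. The 12.4 FPKM of WT library 6 lay inside the CKO range, and the other 6 WT libraries, at most 3.73 FPKM, lay below all CKO libraries. The mean rose 4.44-fold, from 3.93 ± 3.79 (SD, n = 7) to 17.4 ± 9.29 FPKM (SD, n = 5; log2 change 1.99, SE 0.39, limma adjusted p = 0.0034). Without WT library 6 the log2 change was 2.27 (limma adjusted p = 0.000446). Without CKO libraries 1 and 5, which also had the highest macrophage sums, it was 1.47 (limma adjusted p = 0.0385). With an exact Wilcoxon test in place of limma Itgb2 was no longer called (adjusted p = 0.0682).

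Itgal (chr7:127296260-127335138, plus strand) encodes the alpha chain that pairs with beta2 as LFA-1 on lymphocytes and other leukocytes and binds ICAM-1. It was 0.632 to 1.23 FPKM in WT (median 0.939) and 2.69, 2.06, 2.77, 2.03 and 1.68 FPKM in CKO, with no overlap. The mean rose 2.44-fold, from 0.920 ± 0.242 (SD, n = 7) to 2.24 ± 0.468 FPKM (SD, n = 5; log2 change 0.75, SE 0.16, limma adjusted p = 0.00549). The 12 libraries held roughly 7.5 to 46.8 fragments of it.

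Itgb7 (chr15:102215995-102231944, minus strand) encodes beta7, which pairs with alpha4 or alphaE on lymphocytes and mast cells. It was 0.240 to 1.51 FPKM in WT (median 0.465) and 2.09, 1.65, 1.22, 1.08 and 2.09 FPKM in CKO. Only the unnumbered WT library, at 1.51 FPKM, reached the CKO range. The mean was 2.64-fold higher, 0.616 ± 0.424 (SD, n = 7) against 1.63 ± 0.473 FPKM (SD, n = 5; log2 change 0.72, SE 0.20, limma adjusted p = 0.0262). The call was lost without WT library 1 (adjusted p = 0.0524), WT library 4 (0.05004), CKO library 1 (0.0708) or CKO library 5 (0.069) and with the exact Wilcoxon test (0.0682), and a library held only about 1.0 to 18.6 fragments. Its alpha partners did not pass: Itga4 averaged 1.79 ± 0.332 FPKM in WT and 2.56 ± 0.547 FPKM in CKO (log2 change 0.35, limma adjusted p = 0.140), and Itgae was at most 0.486 FPKM in all libraries and not tested.

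The summed macrophage, mast cell and T cell markers were higher in all CKO than in all WT libraries, the same group direction as these 3 genes. Within groups the match was partial. CKO libraries 1 and 5 were highest in both the macrophage sum and Itgb2. Most of that sum was Lyz2 (2248 and 2670 FPKM). Cd68 and C1qa were highest in the same CKO libraries, but Csf1r, Adgre1, Cd14 and Mrc1 in CKO libraries 1 and 4. In WT, library 3 had the highest macrophage sum (725 FPKM) with 2.23 FPKM of Itgb2. Library 6, highest in Itgb2, had a macrophage sum close to that (709 FPKM) and the lowest mast cell sum (0.443 FPKM). Csf1r, Adgre1, Cd14, C1qa and Mrc1 were highest of WT in library 6, and Cd68 and Lyz2 in library 3. T cell markers summed to 1.85 to 4.38 FPKM in WT and 7.73 to 18.9 FPKM in CKO, with 2 of the 3 tested called higher. These 3 reached 1 FPKM in fewer than 5 WT libraries and entered the test through the CKO libraries. None of the markers in these lists was at 0 in all libraries. The part of these cells in the integrin values was not tested.

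**Figure D4:**
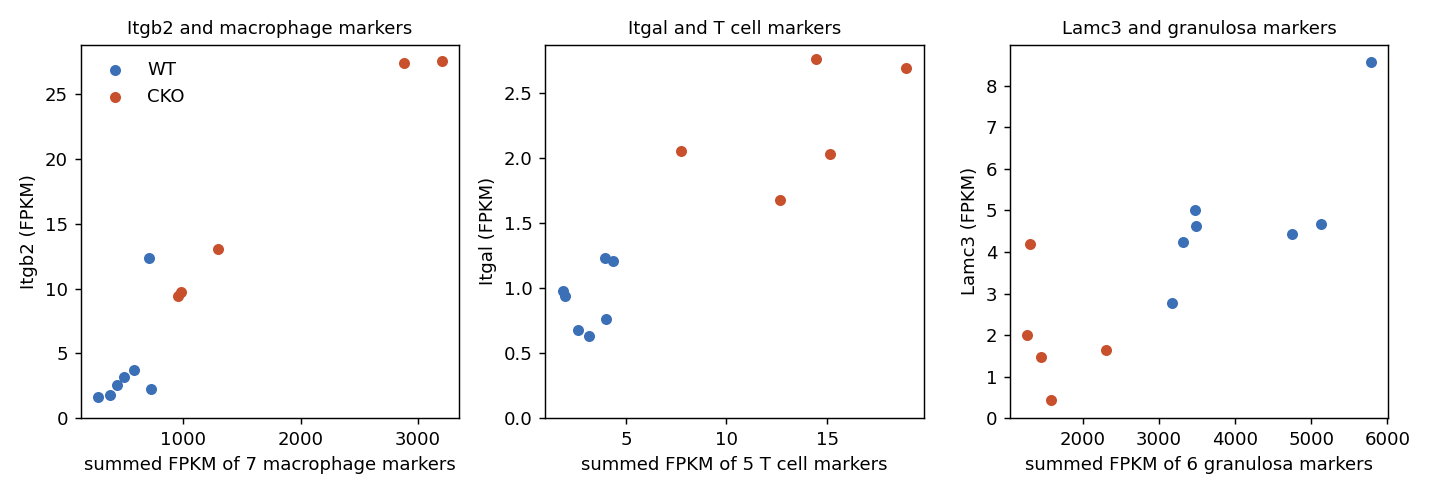
FPKM of Itgb2, Itgal and Lamc3 in each library (y axes) against the summed FPKM of macrophage, T cell and granulosa markers (x axes), linear scales, blue WT and red CKO. The 5 CKO libraries lie apart from the 7 WT libraries on each x axis, and WT library 6 is the blue point at 12.4 FPKM of Itgb2.

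Among the receptors of fibronectin and vitronectin, which read the RGD tripeptide, 1 alpha chain rose and another fell. Itga5 (chr15:103344286-103366763, minus strand) encodes alpha5, whose pair with beta1 is the main fibronectin receptor. It was 8.81, 10.2 and 13.3 FPKM at the lowest, median and highest WT library, and 18.4, 11.95, 18.3, 15.7 and 14.7 FPKM in CKO. Only the unnumbered WT library (13.3 FPKM) exceeded the lowest CKO value. The mean rose 1.53-fold, from 10.3 ± 1.47 (SD, n = 7) to 15.8 ± 2.70 FPKM (SD, n = 5; log2 change 0.57, SE 0.13, limma adjusted p = 0.00812), with an adjusted p of 0.0519 without CKO libraries 1 and 5.

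Itgav (chr2:83724397-83806916, plus strand) encodes alphaV, which pairs with several beta chains and binds vitronectin and latent TGF-beta. It was 29.7 to 45.2 FPKM in WT (median 33.1) and 26.3, 25.6, 20.7, 25.2 and 22.7 FPKM in CKO, with every CKO value below every WT value. The mean fell to 0.682-fold, from 35.3 ± 5.66 (SD, n = 7) to 24.1 ± 2.35 FPKM (SD, n = 5; log2 change -0.52, SE 0.11, limma adjusted p = 0.00678). Antisense overlap covers 5.9% of its exon bases. Itgav and Itgal passed the test in every setting in which they were tested.

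The beta partners of alphaV did not pass. Itgb3 was 16.1 to 34.4 FPKM in WT (median 28.1) and 13.3, 26.03, 17.1, 19.8 and 15.9 FPKM in CKO, with overlap (log2 change -0.50, SE 0.21, limma adjusted p = 0.127). WT library 6 (16.1 FPKM) and the unnumbered library (16.7 FPKM) stood below the other 5 WT libraries, which were 27.4 to 34.4 FPKM. Without those 2 WT libraries Itgb3 was lower in CKO (log2 change -0.75, adjusted p = 0.00651). Itgb5 was 35.7 to 58.7 FPKM in WT (median 37.5) and 66.5, 47.1, 48.3, 55.9 and 54.4 FPKM in CKO (log2 change 0.40, SE 0.13, limma adjusted p = 0.0528). The unnumbered WT library held the 58.7 FPKM, and the other 6 WT libraries, at most 43.4 FPKM, lay below all CKO libraries. Without it the log2 change was 0.48 (adjusted p = 0.00689), and without CKO library 2 it was 0.45 (0.046). Itgb6, another partner, was at 0 in all WT libraries and at most 0.161 FPKM in CKO, and Itgb8 was at most 0.462 FPKM.

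Promoter sequence is shown for the called members whose RefSeq entry starts within 30 bases of the GENCODE start, Itga5, Itgav and Itgb7, because 2 of these rose and 1 fell. Each run is the 250 bases before the start, 5′ to 3′ on the gene's strand, from RefSeq on GRCm38.p6, at chr15:103366792-103367041 (minus strand), chr2:83724147-83724396 (plus strand) and chr15:102231936-102232185 (minus strand). Capitals mark GAGGAA or its complement TTCCTC, the core bound by PU.1, an ETS factor, and GGGCGG or CCGCCC, the GC box of Sp factors. Both strands were searched, for these runs of letters only, so shorter motifs of other ETS factors are not marked.
Itga5: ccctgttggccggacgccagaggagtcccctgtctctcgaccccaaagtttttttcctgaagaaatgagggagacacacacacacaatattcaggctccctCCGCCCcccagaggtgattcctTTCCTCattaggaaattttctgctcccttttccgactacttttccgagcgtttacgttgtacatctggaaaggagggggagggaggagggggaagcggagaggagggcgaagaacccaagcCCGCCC
Itgav: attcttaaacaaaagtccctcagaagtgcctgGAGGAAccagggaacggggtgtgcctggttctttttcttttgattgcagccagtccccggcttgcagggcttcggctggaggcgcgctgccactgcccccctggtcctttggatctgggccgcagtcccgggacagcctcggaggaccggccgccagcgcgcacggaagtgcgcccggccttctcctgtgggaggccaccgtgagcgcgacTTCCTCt
Itgb7: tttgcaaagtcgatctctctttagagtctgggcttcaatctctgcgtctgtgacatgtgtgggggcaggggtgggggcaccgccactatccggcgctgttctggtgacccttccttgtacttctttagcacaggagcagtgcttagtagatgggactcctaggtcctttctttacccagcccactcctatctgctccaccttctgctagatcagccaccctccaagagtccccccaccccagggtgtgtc
The Itga5 window held 1 PU.1 core and 2 GC boxes, the Itgav window 2 PU.1 cores and no GC box, and the Itgb7 window neither. Of all 32851 windows of this length in the table, 23.3% held the PU.1 core and 32.7% the GC box. Of the 37 members 23 had an entry, in 26 windows, of which 13 held the PU.1 core and 10 the GC box. A match is a run of letters and not a bound site.

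Itga9 (chr9:118606690-118901003, plus strand), whose pair with beta1 binds tenascin-C, osteopontin and VCAM-1, was the most abundant integrin alpha transcript. It was 49.8, 60.1 and 66.9 FPKM at the lowest, median and highest WT library, and 30.2, 55.0, 45.7, 43.9 and 40.1 FPKM in CKO. CKO library 2 lay inside the WT range and the other 4 below it. The mean fell to 0.733-fold, from 58.6 ± 5.96 (SD, n = 7) to 43.0 ± 8.99 FPKM (SD, n = 5; log2 change -0.46, SE 0.13, limma adjusted p = 0.0256). The adjusted p was 0.0579 without CKO library 1 and 0.0582 without CKO library 5, the CKO libraries with the lowest Itga9, and 0.0682 with the exact Wilcoxon test.

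Beta1, the shared partner of most alpha chains, had the highest level of any member and did not pass. Itgb1 (chr8:128685654-128733200, plus strand) was 124 to 169 FPKM in WT (median 144) and 135, 123, 127, 146 and 139 FPKM in CKO (log2 change -0.10, SE 0.09, limma adjusted p = 0.495). The laminin-binding alpha chains did not pass either. Itga6, found in granulosa cells and epithelia, averaged 24.3 ± 1.79 and 27.5 ± 5.09 FPKM (log2 change 0.15, adjusted p = 0.394), Itga3 6.99 and 7.19 FPKM (0.04, adjusted p = 0.888), and Itga7, the muscle laminin receptor, had a log2 change of 0.16 (adjusted p = 0.578). Itgb4, the beta chain of hemidesmosomes, was at most 0.610 FPKM and not tested.

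Of the collagen receptors, Itga1, found on smooth muscle and vessels, averaged 3.15 ± 0.853 FPKM in WT and 2.01 ± 0.472 FPKM in CKO (log2 change -0.45, SE 0.17, limma adjusted p = 0.0927). Itga11 did not pass (log2 change 0.04, limma adjusted p = 0.919). Itga8, a receptor of nephronectin and not of collagen, did not pass either (-0.14, limma adjusted p = 0.646). Itga10 was 0.275 to 1.47 FPKM and not tested. Itga2 was under the filter too, at 0.252 to 1.43 FPKM in WT (median 0.527) and 0, 0, 0.247, 0.110 and 0.233 FPKM in CKO, so that all CKO values lay below all WT values; with no filter on low values it was called lower. Itga2b, the platelet alpha chain, was at most 0.461 FPKM, and platelet markers summed to 4.14 to 14.0 FPKM in WT and 3.45 to 18.5 FPKM in CKO.

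**Figure D5:**
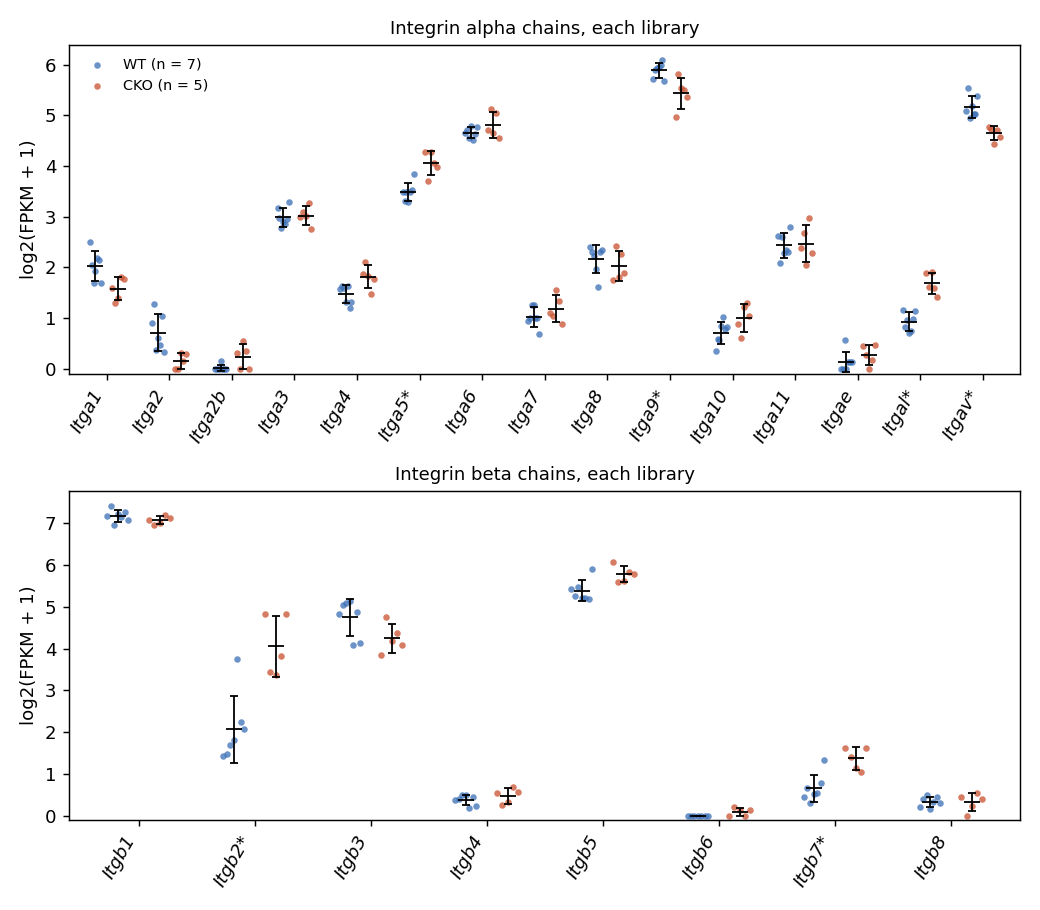
Log2(FPKM + 1) of the 15 integrin alpha and 8 beta chains in each library (blue, WT, n = 7; red, CKO, n = 5), with the mean and SD of each group. Asterisks mark the 6 members that passed the test. Of these, Itgal and Itgav are those in which no red point reaches the blue points. The same holds for Itga2, which was under the filter and not tested.

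Within the summed integrin alpha FPKM (152 ± 5.88 in WT and 135 ± 13.7 in CKO), Itga9 took 38.6 ± 4.10% and 31.6 ± 4.59%, Itgav 23.2 ± 2.96% and 17.9 ± 2.18%, and Itga5 6.79 ± 0.976% and 11.9 ± 2.76%. The Itga6 share was 14.8 to 17.5% in WT and 18.2 to 22.2% in CKO, without overlap, while its own FPKM did not pass. Of the summed beta FPKM (218 ± 12.4 and 227 ± 19.4), Itgb1 took 66.2 ± 3.43% in WT and 59.3 ± 2.98% in CKO, and Itgb5 19.1 ± 4.24% and 23.9 ± 1.87%. These shares are described with no test.

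The basement membrane's other components were taken from a list of 20 genes, of which 18 were tested. Of these 2 (11.1%) were higher and 6 (33.3%) lower, against 8.70% and 7.59% of all genes tested, with a median log2 change of -0.37. Nephronectin, the Itga8 ligand Npnt, fell from 9.96 ± 2.67 (SD, n = 7) to 3.88 ± 1.08 FPKM (SD, n = 5; log2 change -1.15, SE 0.21, limma adjusted p = 0.00212). Peroxidasin (Pxdn), which cross-links collagen IV, fell from 39.7 ± 6.43 to 25.8 ± 3.43 FPKM without overlap (-0.60, adjusted p = 0.00464). Col18a1, the collagen that yields endostatin, and Dag1, dystroglycan, also fell (adjusted p = 0.0139 and 0.0142). Col4a1 and Col4a2, the main collagen IV chains, did not pass (log2 change -0.41 and -0.38, adjusted p = 0.164 and 0.0955). The 2 that were higher, chosen after their values were seen, were Bcam, a laminin receptor (adjusted p = 0.0299), and Col4a6 (0.0442).

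Of 12 other integrin ligands 10 were tested, with 3 (30.0%) higher, 0 lower and a median log2 change of 0.30. Over all genes tested 8.70% were higher and 7.59% lower. By limma 0 of them were lower at an unadjusted p under 0.05 as well. Vcam1, a ligand of alpha4 and alpha9 integrins, rose from 9.99 ± 4.04 (SD, n = 7) to 30.5 ± 7.002 FPKM (SD, n = 5; log2 change 1.56, SE 0.23, limma adjusted p = 0.000625). Icam1, a ligand of beta2 integrins, rose from 7.63 ± 3.10 to 22.5 ± 7.84 FPKM (1.45, adjusted p = 0.0014), and Spp1, osteopontin, from 28.1 ± 17.8 to 130 ± 106 FPKM (2.03, adjusted p = 0.0142). Icam2, also on the list, did not pass (-0.03, limma adjusted p = 0.949).

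Of 18 integrin adaptors and regulators 17 were tested, with 2 (11.8%) higher, 1 (5.88%) lower and a median of 0.12. These shares lie near the 8.70% and 7.59% of all genes tested. The 2 that rose are the blood-cell members of their families: Parvg (gamma-parvin, 1.92 ± 0.842 to 6.83 ± 1.69 FPKM, log2 change 1.45, limma adjusted p = 0.000796) and Fermt3 (kindlin-3, 1.99 ± 1.18 to 5.82 ± 2.33 FPKM, 1.21, adjusted p = 0.00677). Parvb, beta-parvin, fell from 48.3 ± 18.1 to 22.1 ± 11.03 FPKM (log2 change -1.13, adjusted p = 0.0195). Of the leukocyte alpha chains outside the rule, Itgax (alphaX, of dendritic cells and macrophages) rose from 0.807 ± 1.17 to 3.10 ± 1.32 FPKM (log2 change 1.299, SE 0.33, limma adjusted p = 0.0149). Like Itgal and Itgb7, Itgax entered the test through the CKO libraries, where it was 1.64 to 4.81 FPKM. In WT it was 3.38 FPKM in library 6 and at most 0.771 FPKM in the other libraries. Itgam (alphaM, of myeloid cells) averaged 2.004 ± 1.88 FPKM in WT and 3.95 ± 1.48 FPKM in CKO and missed the threshold (0.83, adjusted p = 0.0809). Itgad was listed at 0 in all libraries except WT library 6 (0.809 FPKM).

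In the authors' deposited table of their own comparison, 7 of the 37 members had a q-value under 0.05. Of these, 6 are called here too, with q-values of 0.0006 for Itgb2 and for Lamc3, 0.00289 for Itga5, 0.00328 for Itgav, 0.0272 for Itga9 and 0.0375 for Lamc1 in the authors' deposited table. The other, Itgb3, has a q-value of 0.00486 in the authors' deposited table and did not pass here. Itgal and Itgb7 are listed there at a q-value of 1. Other low members have the same q-value whatever their deposited log2 fold change, such as Itga2b (3.66) and Lama4 (-0.15). It may mark genes that were not tested, so it is not read as a contrary result.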

How the data were processed

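Whole-ovary polyadenylated RNA was sequenced, per the labels' protocols, for 7 WT and 5 CKO libraries, each of which has 1 column of the deposited table. The submitters' processing notes name TopHat2 2.0.13, Cufflinks 2.2.1, Cuffdiff and the mm10 build; the sources used here do not state the annotation or whether strand was used. The authors deposited FPKM per gene and library. Their table also holds a log2 fold change, a p-value and a q-value per gene for the authors' own comparison, whose direction was read from the group means.

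The test covered the 13168 of 24255 genes that reached 1 FPKM in 5 or more of the 12 libraries, as log2(FPKM + 1), with limma 3.58.1 in R 4.3.3 (trended empirical Bayes, group only, two-sided, Benjamini-Hochberg, threshold 0.05). The fit was tested on simulated data. The values are not counts, so no count model was used. Members, lists and tests were chosen with earlier results of these data known. Per-library values are given for called members, the most abundant member of each class and uncalled members with a log2 change of at least 0.5 in size; of each list, the called genes with the 4 smallest p, or the 2 smallest p where none is called. Depth was estimated from the whole steps between values of genes under 1 FPKM, within a tolerance of 0.1 for 85.1% of 1944 genes; 1 fragment on 1 kb of transcript was then 0.300 to 0.656 FPKM. No 2 libraries were duplicates (highest correlation 0.971). Gene positions come from GENCODE M21. Values of 1 member are not reported here. Alternatives varied the pseudocount, filter, scaling, variance model, weights, test, threshold and libraries.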

Additional observations from a re-analysis of the deposited data

Results flagged for a closer look

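Groups of 5 and 7 libraries were searched, for the 27 members tested, for a highest or lowest library set apart from the rest by Dixon's criterion. Of 54 groups 8 were picked out, and chance picks out about 1 in 20 groups.

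The unnumbered WT library had the highest WT value of 4 members: 13.3 FPKM of Itga5 (next highest 10.5), 58.7 FPKM of Itgb5 (43.4), 1.51 FPKM of Itgb7 (0.717) and 11.9 FPKM of Lamb1 (9.60). WT library 6 had 12.4 FPKM of Itgb2 against 3.73 FPKM in the next WT library. WT library 1 had 8.58 FPKM of Lamc3 against 5.00 FPKM. CKO library 4 had the highest CKO value of Lamc1, 33.7 FPKM against 23.3 FPKM, and of Lama4, 3.18 FPKM against 2.13 FPKM.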

How the results depend on the processing

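Over 27 settings and 723 member values, 680 kept their side of the threshold, 35 were no longer called, 8 became called and 0 called values changed sign. Among the 680 are uncalled values of opposite sign for Hspg2 (1), Itga11 (3), Itga3 (2), Lamb1 (9) and Lamb2 (6). The 2 lower basement membrane chains became 1 with FPKM of at least 1 in all 12 libraries (Lamc3 was not then tested), with the exact Wilcoxon test, with a log2 change of at least 0.5 required as well, and without WT library 6 and the unnumbered WT library; they became 0 without CKO libraries 1 and 5, without CKO libraries 2 and 3, and in the same libraries as the replicate block with no number in the model. The 4 higher integrins became 2 with FPKM of at least 1 in all 12 libraries (Itgal and Itgb7 were not then tested), with the Wilcoxon test and without CKO libraries 1 and 5. The 2 lower integrins became 1 with the Wilcoxon test, with the added fold threshold and without CKO libraries 1 and 5. Leaving out each library in turn gave 1 to 2 lower basement membrane chains and 1 to 2 lower integrins. Other causes of these changes were not tested. The sets of left-out libraries were chosen after seeing the data. Over all genes 1145 were higher and 999 lower, against 749 and 676 with the Wilcoxon test, 702 and 673 without CKO libraries 1 and 5, and 756 and 622 with the replicate block. Deviations of libraries with the same title number, 1 to 4, correlated at -0.033, 0.090, 0.040 and -0.071. Both groups also have a title numbered 5, which the check and the replicate block left out because no WT column was assigned to it. The check showed no sign of pairing by number, but cannot show that the samples are unpaired. The replicate block called 0 lower basement membrane chains. Members under 1 FPKM rest on few fragments, which limits the differences that can be seen in them.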

Other observations

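WT library 6, which had the highest WT Itgb2, was also read for other leukocyte genes; these were chosen after seeing the values and are given with no explanation. Itgam, the alphaM chain, was 6.20 FPKM there and 0.890 to 1.81 FPKM in the other 6 WT libraries. Itgax was 3.38 FPKM against 0.0882 to 0.771 FPKM, and Itgad 0.809 FPKM, with 0 listed in all other WT and all CKO libraries. Ptprc, the pan-leukocyte antigen CD45, was 10.7 FPKM against 2.12 to 4.11 FPKM. The genes Cd300e and Fcgr4, known from non-classical monocytes, stood further apart than these: Cd300e was 65.8 FPKM against 0 to 0.614 FPKM in the other WT and at most 0.313 FPKM in the CKO libraries, and Fcgr4 was 173 FPKM against 2.81 to 10.9 FPKM in the other WT and 14.3 to 29.1 FPKM in the CKO libraries. Itgal, by contrast, was 0.682 FPKM in this library, within the range of the other WT libraries. The macrophage markers were mixed. Cd68, at 19.8 FPKM, lay within the 6.12 to 25.9 FPKM of the other WT libraries, and Lyz2, at 340 FPKM, within their 163 to 517 FPKM. C1qa (310 FPKM, against 82.8 to 153 FPKM) and Adgre1 (5.02 FPKM, against 0.584 to 2.91 FPKM) were above all other WT libraries. Csf1r, Cd14 and Mrc1 were also highest there, by less.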
